A study of Xenopus laevis with 9 samples.

Results

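The genes wnt8a.L, wnt3a.S, fzd10.S and tcf7l2.L encode 2 Wnt ligands, a Wnt receptor and a transcription factor that acts at the end of the canonical Wnt pathway. All probe sets to which the platform annotation gives exactly 1 of these 4 symbols were taken, which gave 6 of the 15611 probe sets on the array and 4 of 7531 genes with a symbol of their own. There was 1 probe set each for wnt8a.L and wnt3a.S, and 2 each for fzd10.S and tcf7l2.L. Expression was measured in Xenopus laevis, the African clawed frog, on 9 Affymetrix arrays, with 3 samples of each of 3 tissues dissected at stage 26, a tailbud stage. The tissues were the primary mouth (samples 1a, 2 and 3), anterior dorsal tissue and ventral tissue with the cement gland. Each RNA sample was a pool from 75 to 100 embryos, and the labels name no strain, transgene or treatment other than dissection in a saline solution. Whether the 3 samples of a tissue come from different clutches is not stated. The p-values therefore reflect no more than the spread among these samples, part of which may be technical.

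Wnt ligands are secreted lipid-modified proteins that bind Frizzled receptors and LRP co-receptors at the cell surface. In the canonical branch of the pathway this stops the destruction of beta-catenin, which enters the nucleus and activates target genes together with TCF/LEF proteins. In vertebrate embryos, Wnt signals from the dorsal neural tube, the midbrain and the posterior body help to pattern the nervous system from back to front, and anterior head tissue forms where secreted antagonists keep them low.

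Markers matched the labels of the flanking tissues. The summed signal of 5 cement gland genes ran from 16948 to 23343 in ventral and cement gland tissue, from 5420 to 8896 in primary mouth and from 2896 to 3869 in anterior dorsal tissue. The summed signal of 15 pan-neural genes ran from 3761 to 4054 in anterior dorsal tissue, from 949 to 1231 in primary mouth and from 591 to 860 in ventral tissue. No set of markers particular to the primary mouth was used to check its label. By their beta-actin control probes the arrays fell into 2 groups that each held all 3 tissues, split at the largest gap in the ratio below. The labels name no batch, so the groups are called batches here by this ratio alone. What sets them apart was not tested. In the first batch (primary mouth 1a and 2, anterior dorsal 1 and ventral 1) the beta-actin signal at the 3' end was 5.48 to 11.2 times that at the 5' end, and in the second (the 5 remaining arrays) 1.46 to 2.03 times. Of 10011 probe sets tested with limma, 469 (4.68%) were higher and 488 (4.87%) lower in the primary mouth than in anterior dorsal tissue at an adjusted p under 0.05. Against ventral tissue, 442 (4.42%) were higher and 1010 (10.1%) lower in primary mouth, and 1054 (10.5%) were higher and 1415 (14.1%) lower in anterior dorsal tissue. Anterior dorsal tissue was higher than both other tissues for 393 probe sets (3.93%).

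The 4 genes had their highest mean signal in anterior dorsal tissue and were lower in primary mouth, where their means were 9.39% to 35.2% of the anterior dorsal mean. The tissues below anterior dorsal came in different orders for the 4 genes. The signals of wnt8a.L in primary mouth and ventral tissue overlapped, wnt3a.S and fzd10.S had their lowest mean in primary mouth, and tcf7l2.L had its lowest mean in ventral tissue. Of all tested probe sets, 1320 (13.2%) had all primary mouth arrays below all anterior dorsal arrays, 1585 (15.8%) had them below all ventral arrays, and 2090 (20.9%) had all anterior dorsal arrays above all ventral ones. In these bulk samples, fewer cells that express a gene and less RNA per cell cannot be told apart.

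The ligand gene wnt8a.L (gene ID 397970) is a homeolog of the Xenopus wnt8a gene, known for its early role in ventral and lateral mesoderm and in the posterior patterning of the neural plate. Its signals in anterior dorsal samples 1, 2 and 3 were 64.7, 66.5 and 116. In primary mouth 1a, 2 and 3 they were 4.87, 13.5 and 6.43, and in ventral 1, 2 and 3 they were 8.26, 16.8 and 2.52. The anterior dorsal samples therefore lay above the other 6 with no overlap, while the ranges of primary mouth and ventral tissue overlapped. Mean signals were 82.5 ± 29.3 (SD, n = 3) in anterior dorsal, 8.25 ± 4.57 in primary mouth and 9.19 ± 7.18 in ventral tissue. All 6 low values lay under the 40th percentile of signals on the same array, which was 30.9 to 35.8, so the size of the difference depends on signals near the bottom of the scale.

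On the scale of log2(signal + 16), which understates changes of weak signals, wnt8a.L was lower in the primary mouth than in anterior dorsal tissue by -1.999 ± 0.25 (SE). The 95% interval was -2.54 to -1.45, with a limma adjusted p of 0.000232. Between anterior dorsal and ventral tissue the log2 difference was 1.97 ± 0.25 (interval 1.42 to 2.51, limma adjusted p = 0.000102). Primary mouth and ventral tissue differed by -0.03 ± 0.25, with an interval of -0.58 to 0.51 (limma adjusted p = 0.951). With 3 arrays per tissue, log2 differences across that interval remain compatible with the data. The probe set entered the test only through its 3 anterior dorsal arrays, so it had to differ between tissues.

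The ligand gene wnt3a.S (gene ID 378679) belongs to the Wnt3 family, known in vertebrates from the dorsal midline of the neural tube and from the tailbud. Its signals were 90.4, 40.6 and 72.0 in anterior dorsal samples 1 to 3 and 4.48, 13.7 and 0.871 in primary mouth 1a, 2 and 3. The ventral samples read 19.2, 21.0 and 43.6. Every primary mouth sample was below every sample of the other tissues, whereas ventral 3 lay above anterior dorsal 2. The means were 67.7 ± 25.2 in anterior dorsal, 6.36 ± 6.62 in primary mouth and 27.9 ± 13.6 in ventral tissue (SD, n = 3).

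The log2 difference of wnt3a.S between primary mouth and anterior dorsal tissue was -1.90 ± 0.29 (SE, interval -2.52 to -1.27, limma adjusted p = 0.000924). Against ventral tissue it was -0.97 ± 0.29 (interval -1.59 to -0.35, limma adjusted p = 0.04). The anterior dorsal signal exceeded the ventral one by 0.92 ± 0.29 (interval 0.30 to 1.55, limma adjusted p = 0.0329), although these groups overlapped. Both comparisons with ventral tissue sat close to the threshold. The call of primary mouth below ventral tissue was lost in 5 of 9 fits without 1 array, those without primary mouth 1a (adjusted p = 0.117), anterior dorsal 3 (0.0546), primary mouth 3 (0.0882), ventral 2 (0.07) or ventral 3 (0.166). The call between anterior dorsal and ventral tissue was lost without ventral 1 (0.109), ventral 2 (0.112), anterior dorsal 1 (0.112) or anterior dorsal 3 (0.0985). This probe set passed the filter through the 3 anterior dorsal arrays and ventral 3.

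The receptor gene fzd10.S (gene ID 387605) encodes a Frizzled, the class of membrane proteins to which Wnt ligands bind, and fzd10 is known in vertebrate embryos from the dorsal neural tube. Its brighter probe set read 179, 142 and 149 in anterior dorsal samples 1 to 3. It read 44.2, 39.4 and 20.9 in primary mouth 1a, 2 and 3, and 60.5, 47.0 and 40.5 in ventral 1 to 3. Anterior dorsal tissue stood clear of both other tissues, and the ranges of primary mouth and ventral tissue overlapped. Mean signals were 157 ± 20.0 in anterior dorsal, 34.8 ± 12.3 in primary mouth and 49.3 ± 10.2 in ventral tissue (SD, n = 3).

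For fzd10.S the log2 difference of primary mouth minus anterior dorsal tissue was -1.79 ± 0.21 (SE, interval -2.25 to -1.33, limma adjusted p = 0.000151). Anterior dorsal tissue exceeded ventral tissue by 1.41 ± 0.21 (interval 0.95 to 1.87, limma adjusted p = 0.000372). Primary mouth and ventral tissue differed by -0.38 ± 0.21 (interval -0.84 to 0.08, limma adjusted p = 0.264), which did not pass the test. With the control-probe batch as a term that difference was -0.52 (limma adjusted p = 0.023), and within the batches it was -0.41 and -0.69.

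The second probe set of fzd10.S was too weak to be tested. Its signals were 2.69, 9.21 and 9.43 in anterior dorsal samples, 0.318, 0.349 and 1.38 in primary mouth samples, and 2.87, 2.47 and 3.18 in ventral samples. Its primary mouth samples were the lowest 3 of the 9, and its anterior dorsal and ventral ranges overlapped. The homeolog fzd10.L had 1 probe set, also untested, with signals of 2.67 to 14.8. Probe sets may detect both copies of a gene, so values of .L and .S copies are uncertain as values of 1 copy. No values are given here for the homeologs wnt8a.S, wnt3a.L and tcf7l2.S.

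The TCF factor tcf7l2.L (gene ID 399164) encodes a DNA-binding partner of beta-catenin, which acts on Wnt target genes as activator or repressor and is known for expression in the developing diencephalon of vertebrates. Its brighter probe set read 204, 173 and 153 in anterior dorsal samples 1 to 3, and 64.1, 82.3 and 40.4 in primary mouth 1a, 2 and 3. The ventral samples read 37.5, 45.0 and 22.2. Anterior dorsal samples lay above all others, and primary mouth 3 lay below ventral 2. The means were 177 ± 25.6 in anterior dorsal, 62.3 ± 21.0 in primary mouth and 34.9 ± 11.6 in ventral tissue (SD, n = 3).

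The log2 difference of tcf7l2.L between primary mouth and anterior dorsal tissue was -1.33 ± 0.24 (SE, interval -1.85 to -0.81, limma adjusted p = 0.00303). Between anterior dorsal and ventral tissue it was 1.94 ± 0.24 (interval 1.42 to 2.46, limma adjusted p = 7.59e-05). The primary mouth mean was above the ventral one by 0.61 ± 0.24 (interval 0.09 to 1.13), which did not pass after adjustment (limma adjusted p = 0.113). That difference passed without primary mouth 3, at 0.83 (limma adjusted p = 0.0274). The second, untested probe set of tcf7l2.L read 7.42, 11.7 and 9.45 in anterior dorsal, 2.01, 16.7 and 9.23 in primary mouth and 1.30, 8.35 and 5.12 in ventral samples. The ranges of all 3 tissues overlapped in it, so it showed none of the separation of the brighter probe set.

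**Figure D1:**
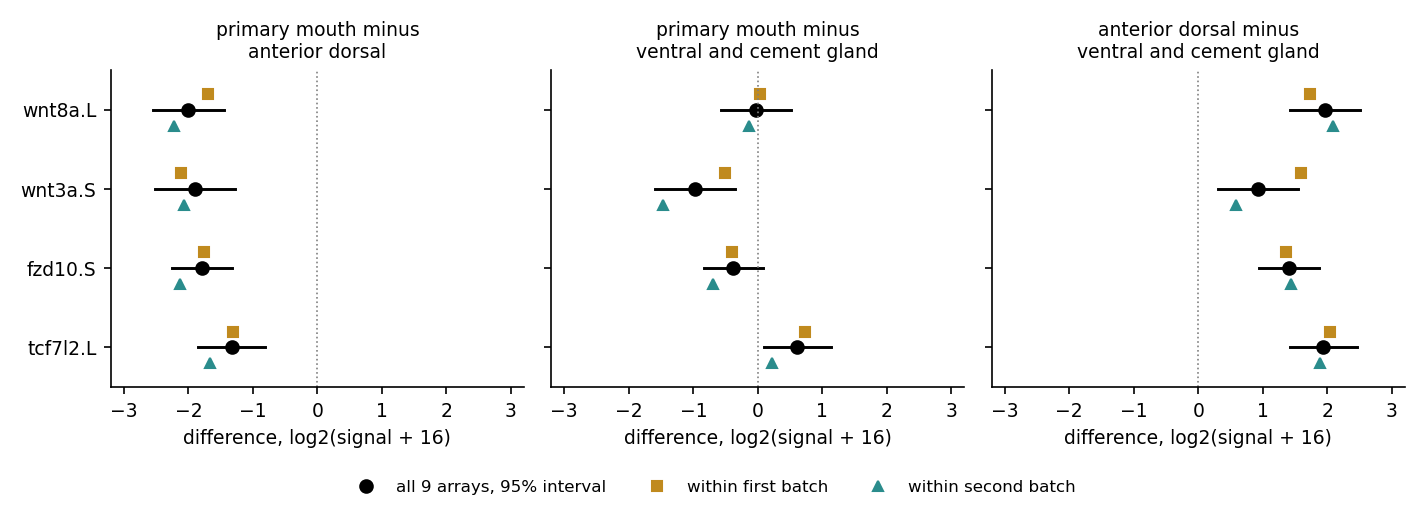
Log2 differences on the log2(signal + 16) scale between tissues for the tested probe set of each gene, with points at the estimate of the limma fit over 9 arrays and bars for its unadjusted 95% interval. Differences from anterior dorsal tissue were called for all 4 genes, and between primary mouth and ventral tissue only wnt3a.S was called (-0.97). Over all tested probe sets 9.56% were called between primary mouth and anterior dorsal tissue. The share was 24.7% between anterior dorsal and ventral tissue and 14.5% between primary mouth and ventral tissue. The probe set of wnt8a.L was tested only through anterior dorsal arrays and had to differ. The calls of wnt3a.S against ventral tissue were lost in 5 (primary mouth) and 4 (anterior dorsal) of 9 fits without 1 array.

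Both batches gave the 4 genes lower signal in the primary mouth than in anterior dorsal tissue. Within the first batch the log2 differences were -1.70 for wnt8a.L, -2.11 for wnt3a.S, -1.76 for fzd10.S and -1.31 for tcf7l2.L. Within the second batch they were -2.22, -2.06, -2.13 and -1.67 in the same order. Against ventral tissue, wnt3a.S in primary mouth differed by -0.51 within the first batch and by -1.48 within the second. Within each batch 1 of the compared tissues has a single array, so these differences are given as values without a test.

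Neural marker genes moved with the 4 Wnt genes. Of 15 pan-neural genes on the array 11 were tested, and 10 of them were lower in the primary mouth than in anterior dorsal tissue, against 4.87% of all tested probe sets. The median log2 difference was -1.81 over the list against -0.01 over all tested probe sets. However, 5 of the 11 (elavl3.L, elavl4.L, neurod1.L, neurod4.L and neurog2.S) entered the test only through anterior dorsal arrays and had to differ, so the count and the median are no independent support. The neural progenitor factor sox3.S differed by -2.16, the neuronal tubulins tubb3.L and tubb2b.S by -2.38 and -1.94, and sox2.L by -1.20. The exception was the neural adhesion gene ncam1.S, at -0.88 (limma adjusted p = 0.152). Against ventral tissue, 3 of the 11 were higher in primary mouth (sox2.L, ncam1.L and ncam1.S), beside 4.42% of all tested probe sets. In the same comparison 0 were lower (1 at an unadjusted p under 0.05), beside 10.1%. All 11 were higher in anterior dorsal than in ventral tissue, beside 10.5% of all tested probe sets. The 5 genes named above had to differ between tissues, so this count is no independent support either.

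The summed pan-neural signal in primary mouth was 27.5% of the anterior dorsal mean (24.2% to 31.4% over the 3 arrays) and in ventral tissue 19.2% (15.1% to 21.9%). The corresponding shares in primary mouth ranged from 5.91% to 16.3% for wnt8a.L and averaged 9.39% for wnt3a.S (1.29% to 20.3%), 22.2% for fzd10.S (13.3% to 28.2%) and 35.2% for tcf7l2.L (22.8% to 46.5%). In ventral tissue they were 11.1% (3.05% to 20.4%), 41.2% (28.3% to 64.4%), 31.5% (25.9% to 38.6%) and 19.7% (12.6% to 25.4%). In primary mouth the ranges of fzd10.S and tcf7l2.L overlapped that of the pan-neural sum, and in ventral tissue that of tcf7l2.L did. The signals of wnt8a.L and wnt3a.S in primary mouth, and all but ventral 3 of wnt3a.S in ventral tissue, lay under the 40th percentile of their arrays, so the shares of these 2 genes depend on the bottom of the scale and were not ranked against the sum. The summed signal of 12 dorsal neural tube genes was 53.3% (40.4% to 69.4%) of the anterior dorsal mean in primary mouth and 50.5% (47.8% to 55.0%) in ventral tissue. The range of fzd10.S lay below that sum in both tissues, and that of tcf7l2.L overlapped it in primary mouth only. The brightest genes weigh most in that sum. It includes msx1.L, msx2.L and pax3.L, which were not called between primary mouth and anterior dorsal tissue. The median log2 difference of the 9 tested genes of the list was -1.69 between these tissues, against -1.79 for fzd10.S. Between anterior dorsal and ventral tissue it was 2.88 against 1.41, so neither gene is ranked against this list by the sum. The part of neural tissue content in the Wnt gene differences was not tested.

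**Figure D2:**
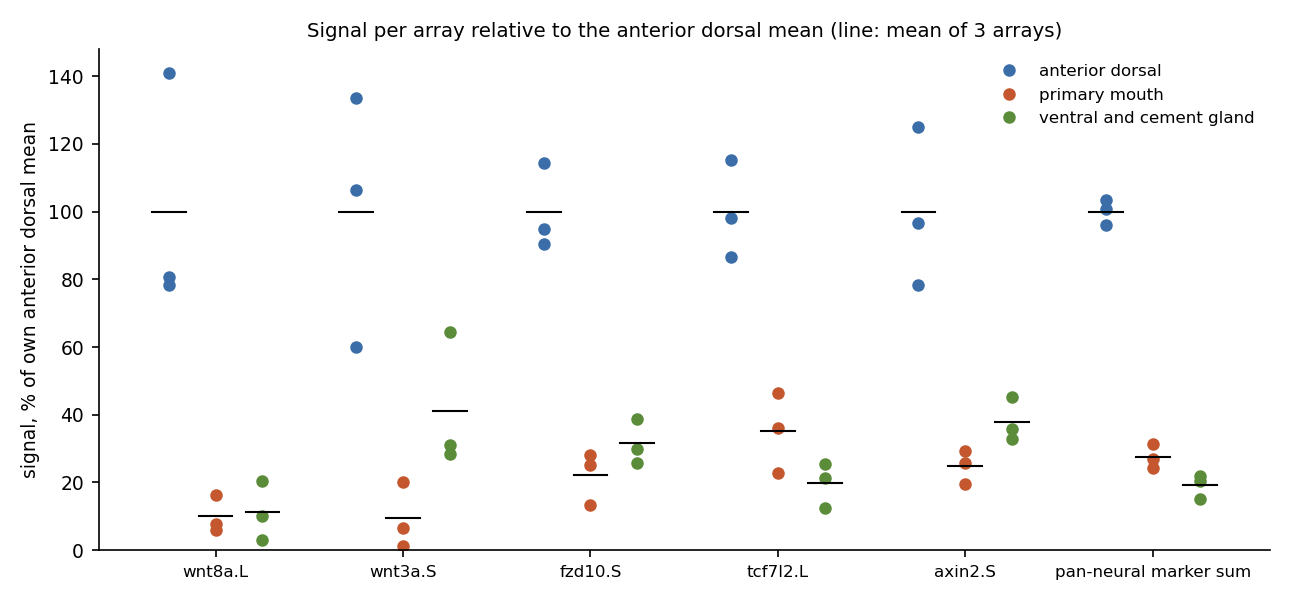
Signal of each of the 4 genes and summed signal of 15 pan-neural markers in every array, as a percentage of the anterior dorsal mean of the same item. Points are single arrays coloured by tissue; the pan-neural sum in primary mouth lies at 24.2% to 31.4%, within the 22.8% to 46.5% of tcf7l2.L, and the shares of wnt8a.L and wnt3a.S there rest on signals near the bottom of the scale.

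Markers of regions where these Wnt genes are known to be expressed also differed. Of 9 tested dorsal neural tube genes, 6 were lower in the primary mouth than in anterior dorsal tissue, against 4.87% of all tested probe sets. They were led by the transcription factors pax3.S (-2.24), zic1.S (-2.12), zic2.S (-2.03) and zic2.L (-1.81). Among the 9, 2 (zic1.S and zic4.L) entered the test only through anterior dorsal arrays and had to differ. The count of 6 is therefore no independent support. With limma 0 were higher, also at an unadjusted p under 0.05. The homeolog pax3.L differed by 0.37 (limma adjusted p = 0.534), so the copies of pax3 did not behave alike. The sum over the 12 genes of this list was 2443 to 3078 in anterior dorsal, 1097 to 1883 in primary mouth and 1298 to 1493 in ventral tissue.

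Of 9 tested markers of diencephalon, midbrain and midbrain-hindbrain boundary, 4 were lower in the primary mouth than in anterior dorsal tissue, against 4.87% of all tested probe sets. Among them were otx2.L (-1.13), irx3.L (-1.07) and en2.L (-0.91), and fgf8.L was higher (0.93). The remaining call, otx2.S (limma adjusted p = 0.0392), was lost in 7 of 9 fits without 1 array (up to 0.16). The summed signals of the 15 genes of this list were 1167 to 1387 in anterior dorsal, 785 to 854 in primary mouth and 688 to 827 in ventral tissue. The 3 tested telencephalon markers differed by -3.40 (eomes.L), -2.89 (emx2.L) and -1.39 (lhx2.L), of which eomes.L and emx2.L entered the test only through anterior dorsal arrays and had to differ, and the summed signals of 4 such genes were 532 to 657 in anterior dorsal, 72.8 to 101 in primary mouth and 51.0 to 64.9 in ventral tissue. Some neural markers were near the bottom of the scale outside anterior dorsal tissue: eomes.L read 3.27 to 10.1 and elavl3.L, a neuronal RNA-binding protein gene, 4.80 to 16.3 in primary mouth. Whether cells of any of these regions carried the Wnt gene signal was not tested.

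Tissues that primary mouth samples could hold beside neural cells showed other patterns. Of 5 cement gland markers 4 were higher, and of 11 tested epidermis markers 4 were higher, in the primary mouth than in anterior dorsal tissue. Over all tested probe sets 4.68% were higher and 4.87% lower in this comparison. With limma 0 of either list were lower, and at an unadjusted p under 0.05 this was so of 0 cement gland and 1 epidermis markers. The summed epidermal signal was 23714 to 24340 in anterior dorsal, 29327 to 37232 in primary mouth and 30883 to 42484 in ventral tissue. Cranial neural crest sums were 601 to 697, 869 to 1162 and 436 to 572 in the same order, with 1 of 3 tested genes higher in the primary mouth than in anterior dorsal tissue. Skeletal muscle sums were 757 to 931, 763 to 1087 and 1092 to 1393, with 1 of 4 tested genes higher. The part of these tissues in the Wnt gene differences was not tested either.

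Beside the 4 genes and the secreted antagonists, 69 pathway genes were on the array and 46 were tested. In primary mouth 4 of them were lower and 2 higher than in anterior dorsal tissue, and 40 did not pass. Over all tested probe sets 957 of 10011 (9.56%) were called in either direction, 4.87% lower and 4.68% higher. The median log2 difference of the 46 genes was -0.16 against -0.01 over all tested probe sets. The 4 lower genes were the ligand wnt8b.S, the receptor fzd3.L and both copies of the target gene axin2. With the control-probe batch as a term 9 were lower and 3 higher, beside 812 lower and 791 higher of all 10011 tested probe sets.

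Against ventral tissue, 5 of the 46 were higher in primary mouth and 0 lower in limma (10 and 4 at an unadjusted p under 0.05). Over all tested probe sets 4.42% were higher and 10.1% lower, 14.5% in either direction. The median of the 46 genes was -0.01 against 0.06 over all tested probe sets. With the batch as a term 7 of the 46 were higher and 1 lower. In that fit 877 of 10011 tested probe sets were higher and 1381 lower. Without primary mouth 1a, ventral 2 or ventral 3 the number of calls was 3, beside 1111, 998 and 955 over all tested probe sets. Between the flanking tissues, 8 of the 46 were higher and 2 lower in anterior dorsal than in ventral tissue. The median of the 46 genes was 0.23 against 0.04 over all tested probe sets. Of all tested probe sets 10.5% were higher and 14.1% lower, 24.7% in either direction. With the replicate block 10 of the 46 were higher and 4 lower, beside 1572 and 1761 of 10011 tested probe sets. With the batch as a term 11 of the 46 were higher and 3 lower, beside 1775 and 1908.

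**Figure D3:**
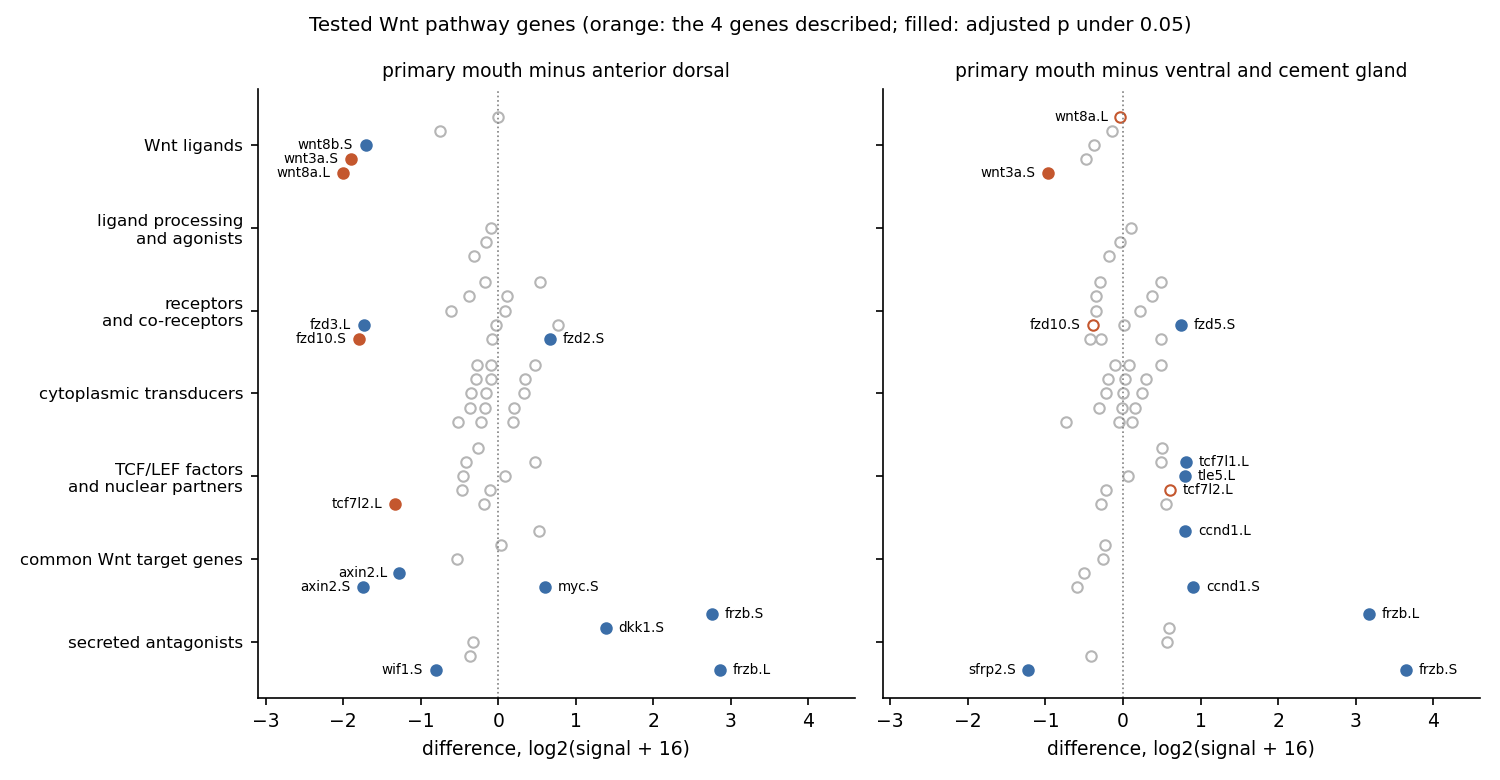
Log2 differences on the log2(signal + 16) scale of every tested gene of the Wnt pathway lists, with 1 row per role in the pathway, for primary mouth minus anterior dorsal tissue (left) and primary mouth minus ventral and cement gland tissue (right). Points are genes, filled where the limma adjusted p was under 0.05 and orange for wnt8a.L, wnt3a.S, fzd10.S and tcf7l2.L. On the left wnt8b.S, fzd3.L and both axin2 copies lie near these 4. All 15 cytoplasmic transducers are unfilled in both panels, where 9.56% (left) and 14.5% (right) of all tested probe sets were called.

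Of 10 other Wnt ligand genes on the array 3 were tested. Between primary mouth and anterior dorsal tissue 1 of them was called (beside 9.56% of all tested probe sets), wnt8b.S. This gene is known from the developing forebrain and midbrain of vertebrates. Its signals were 33.1, 34.1 and 63.7 in anterior dorsal, 1.15, 0.713 and 3.55 in primary mouth and 9.73, 6.14 and 5.14 in ventral samples. The 3 tissues did not overlap, with primary mouth lowest. Primary mouth lay wholly below anterior dorsal tissue for 13.2% of all tested probe sets and wholly below ventral tissue for 15.8%. The log2 difference of wnt8b.S was -1.71 ± 0.19 (SE) from anterior dorsal tissue (limma adjusted p = 0.000116) and -0.37 ± 0.19 from ventral tissue (adjusted p = 0.242). Like wnt8a.L, it entered the test only through its anterior dorsal arrays, so it had to differ between tissues.

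The 7 untested ligand genes had signals of 0.760 to 62.0 and did not all share this pattern. The non-canonical ligand gene wnt5a.S, known for its role in cell movements, read 5.02, 1.53 and 0.921 in anterior dorsal, 28.4, 47.7 and 19.6 in primary mouth and 24.0, 14.9 and 20.2 in ventral samples. For wnt2b.L the signals were 18.0, 33.0 and 49.4 in anterior dorsal, 1.46, 4.51 and 1.07 in primary mouth and 16.1, 9.87 and 3.34 in ventral samples. Anterior dorsal samples were thus the lowest 3 for wnt5a.S and the highest 3 for wnt2b.L, which were both chosen after their values were seen and not tested. None of the 3 tested genes for ligand processing and agonists (porcn.L and both copies of wls, which acylate and export Wnt proteins) passed in limma in any comparison, nor at an unadjusted p under 0.05. With only 3 genes this is near the background. Over all tested probe sets 9.56% were called between primary mouth and anterior dorsal tissue. Between primary mouth and ventral tissue the share was 14.5%, and between the flanking tissues 24.7%.

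Of 16 other receptor and co-receptor genes on the array 11 were tested. The Frizzled gene fzd3.L, known for its role in axon guidance and neural crest induction, read 223, 231 and 293 in anterior dorsal, 74.5, 65.6 and 51.0 in primary mouth and 99.8, 97.6 and 74.2 in ventral samples. Anterior dorsal tissue lay above both others, as for fzd10.S. The log2 difference from anterior dorsal tissue was -1.74 ± 0.19 (limma adjusted p = 8.29e-05), and that from ventral tissue -0.42 ± 0.19 (adjusted p = 0.162).

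The Frizzled genes fzd2.S and fzd5.S were each higher in primary mouth in 1 of the 2 comparisons. The signal of fzd2.S was 218 ± 41.6 in primary mouth against 130 ± 12.8 in anterior dorsal tissue (SD, n = 3), a log2 difference of 0.67 ± 0.18 (SE, limma adjusted p = 0.0367, and 0.096 against ventral tissue). That of fzd5.S, known from anterior neural and eye tissue, was 60.5 in primary mouth against 28.4 in ventral tissue (log2 difference 0.75 ± 0.23, limma adjusted p = 0.0459, and 0.0563 against anterior dorsal tissue). Both calls sat near the threshold: the fzd2.S call was lost without anterior dorsal 2, anterior dorsal 3, primary mouth 1a, primary mouth 3 or ventral 2 (adjusted p up to 0.155), and the fzd5.S call in 7 of 9 fits without 1 array (up to 0.146), holding without anterior dorsal 3 and without primary mouth 2. The receptor kinase gene ror2.L, which takes part in non-canonical Wnt signalling, was lower in anterior dorsal than in ventral tissue, at -0.83 (limma adjusted p = 0.00533).

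The probe sets of fzd8.S, a Frizzled gene of anterior tissue, disagreed, and they are named after their values were seen. The brighter probe set, which stood for the gene in the counts, read 153, 185 and 145 in anterior dorsal and 214, 168 and 138 in primary mouth samples, with a log2 difference of 0.08 (limma adjusted p = 0.837). The other read 71.5, 93.5 and 68.9 in anterior dorsal, 317, 228 and 312 in primary mouth and 153, 213 and 151 in ventral samples. Its primary mouth samples lay above all others, with log2 differences of 1.68 from anterior dorsal (limma adjusted p = 0.000149) and 0.68 from ventral tissue (adjusted p = 0.0368), and fits without single arrays were not examined for it.

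Cytoplasmic transducers, which include Dishevelled, beta-catenin and the casein kinases of its destruction complex, gave 0 calls among 15 tested genes in any of the 3 limma comparisons, and 1 in each at an unadjusted p under 0.05. Over all tested probe sets, 9.56% were called between primary mouth and anterior dorsal tissue, and a count of 0 among 15 genes is near that background. The share was 14.5% between primary mouth and ventral tissue and 24.7% between the flanking tissues. Whether 0 among 15 differs from these shares was not tested. Beta-catenin itself, ctnnb1.S, read 697, 668 and 643 in anterior dorsal, 709, 534 and 645 in primary mouth and 499, 725 and 693 in ventral samples. The ranges of the 3 tissues overlapped. Its log2 difference between primary mouth and anterior dorsal tissue was -0.09, with an interval of -0.48 to 0.29 (limma adjusted p = 0.799). For ctnnb1.L the difference was -0.15, with an interval of -0.67 to 0.37 (adjusted p = 0.753).

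Among TCF/LEF factors and their nuclear partners, 0 of 8 tested genes besides tcf7l2.L passed between primary mouth and anterior dorsal tissue in limma (1 higher and 2 lower at an unadjusted p under 0.05). Over all tested probe sets 9.56% were called in this comparison, so 0 of 8 is near the background. The TCF gene tcf7l1.L, known as a repressor of Wnt targets in the anterior head, read 167, 225 and 202 in anterior dorsal, 298, 283 and 255 in primary mouth and 113, 207 and 148 in ventral samples. Its highest 3 samples were those of primary mouth, unlike tcf7l2.L, whose highest 3 were anterior dorsal. It was higher in primary mouth than in ventral tissue by 0.81 ± 0.21 (limma adjusted p = 0.0196), and its difference from anterior dorsal tissue, 0.47, did not pass (adjusted p = 0.2). The former call was lost without primary mouth 1a, primary mouth 2, ventral 1 or ventral 3 (adjusted p up to 0.0695).

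The Groucho-related genes tle5.L and tle2.L had their lowest signals in ventral tissue. Signals of tle5.L were 786 to 890 in anterior dorsal, 573 to 658 in primary mouth and 323 to 366 in ventral samples, without overlap. Anterior dorsal tissue lay wholly above primary mouth for 13.2% of all tested probe sets and wholly above ventral tissue for 20.9%. The log2 difference of tle5.L from ventral tissue was 0.80 ± 0.14 for primary mouth (limma adjusted p = 0.00241) and 1.27 ± 0.14 for anterior dorsal tissue (adjusted p = 3.83e-05). For tle2.L the latter difference was 0.76 (limma adjusted p = 0.0155), a call lost without anterior dorsal 2, ventral 1 or ventral 3 (up to 0.0752).

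Common target genes of the pathway were mixed. Of 6 tested genes, 2 were lower and 1 higher in the primary mouth than in anterior dorsal tissue, against 4.87% and 4.68% of all tested probe sets. Signals of axin2.S, a feedback inhibitor widely read as a sign of canonical Wnt activity, were 229, 185 and 297 in anterior dorsal, 69.1, 46.4 and 60.7 in primary mouth and 77.8, 84.7 and 107 in ventral samples. The 3 tissues did not overlap, with primary mouth lowest. Of all tested probe sets, 13.2% had primary mouth wholly below anterior dorsal tissue and 15.8% wholly below ventral tissue. The log2 difference of axin2.S was -1.75 ± 0.20 from anterior dorsal tissue (limma adjusted p = 0.000144). From ventral tissue it did not pass (interval -0.95 to -0.06 unadjusted, adjusted p = 0.129).

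The homeolog axin2.L had the same order of tissues. It read 50.6, 87.4 and 76.6 in anterior dorsal, 22.7, 14.4 and 22.4 in primary mouth and 28.4, 43.0 and 43.7 in ventral samples. Again the 3 tissues did not overlap, beside the same shares of 13.2% and 15.8% over all tested probe sets. The log2 differences were -1.27 ± 0.20 from anterior dorsal tissue (limma adjusted p = 0.00143) and -0.60 ± 0.20 from ventral tissue (adjusted p = 0.0745).

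The cell cycle gene ccnd1 and the growth regulator myc, also counted as Wnt targets, differed in other ways. Signals of ccnd1.S were 812 in anterior dorsal, 562 in primary mouth and 291 in ventral tissue, and it was higher in primary mouth than in ventral tissue by 0.91 (limma adjusted p = 0.00396). The copy ccnd1.L was higher by 0.81 (adjusted p = 0.0102), a call lost without ventral 2 (0.0506). For myc.S the log2 difference of primary mouth from anterior dorsal tissue was 0.61 ± 0.16 (limma adjusted p = 0.0333). The same 5 arrays as for fzd2.S ended that call when left out, and the other 2 probe sets of myc.S did not pass (adjusted p = 0.204 and 0.153). The target gene sp5.S was too weak to be tested, at 1.05 to 9.45.

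Secreted antagonists, which bind Wnt ligands or their co-receptors outside the cell, moved in the opposite direction to the 4 genes in 3 of 6 tested cases. Over all tested probe sets 4.68% were higher in the primary mouth than in anterior dorsal tissue. Both copies of frzb and dkk1.S were higher in the primary mouth than in anterior dorsal tissue, by 2.86 (frzb.L), 2.76 (frzb.S) and 1.39 (dkk1.S) on the log2 scale, and wif1.S was lower by -0.81. Against ventral tissue both frzb copies were higher and sfrp2.S was lower (-1.22). The dkk1.S call against anterior dorsal tissue was lost without anterior dorsal 3 (limma adjusted p = 0.0715), and that of wif1.S without anterior dorsal 2, anterior dorsal 3, primary mouth 1a or primary mouth 3 (up to 0.122).

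The 4 genes correlated with one another across the 9 arrays. Pearson's r of log2(signal + 16) ran from 0.587 for wnt3a.S with tcf7l2.L to 0.906 for wnt8a.L with fzd10.S. The arrays fall into 3 tissues, so these values and those that follow describe the tissue pattern and are given without a p. Among 6539 tested probe sets of other genes with 1 symbol, those most like wnt8a.L were gtsf1.L (r = 0.984), the forebrain LIM homeobox gene lhx5.S (0.982), rgr.S (0.969), qdpr.L (0.964) and pam.L (0.963). Like wnt8a.L, the genes lhx5.S, rgr.S and pam.L entered the test only through anterior dorsal arrays and so had to differ between tissues.

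For fzd10.S the most alike probe sets were those of cpe.L (r = 0.986), itgb5.L (0.977), the Frizzled gene fzd3.L (0.975), the forebrain homeobox gene emx2.L (0.971) and cd37.S (0.965). Among these, cpe.L and emx2.L entered the test only through anterior dorsal arrays. For tcf7l2.L they were celf3.S (0.987), which encodes a neuronal RNA-binding protein, dpysl3.S (0.986), the axon guidance gene slit1.S (0.986), cenpv.L (0.985) and nr2f2.L (0.985). The nearest to wnt3a.S were less close: atp2a2.S (0.933), apoe.L (0.924), cnrip1.L (0.906), kirrel2.L (0.905) and bcam.L (0.901). The lists of 5 for the 4 genes shared no probe set.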

How the data were processed

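Total RNA of 9 samples was hybridised to 9 arrays. The authors deposited linear signal intensities for each array, made with MAS5 per the submitters' processing notes, whose version is not given in the sources used here. Each array had a trimmed mean of 150 (the highest and lowest 2% of probe sets left out), and this scaling was kept. No detection calls were used, so low signals were not read as absence. No pair of arrays held identical values, and precision is limited by the 3 arrays per tissue.

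Of 15611 probe sets 120 are controls. The platform annotation gives 1 gene symbol for 9304 of the others, several for 195 and none for 5992, and gene IDs of 9227 were found in RefSeq's gene table (assembly Xenopus_laevis_v10.1), which updated 2 symbols. Values were analysed as log2(signal + 16), and levels of single genes were not compared with each other. The marker sums add linear signals of different probe sets, so the brightest weigh most in them. The test covered probe sets whose signal exceeded the 40th percentile of the array on 3 or more of the 9 arrays, which left 10011, among them 4 of the 6 probe sets of the 4 genes. In R 4.3.3, limma 3.58.1 fitted a mean for each tissue to the 9 arrays together, with 6 residual degrees of freedom and moderated variances that follow a trend on the mean. Tests were two-sided, with p-values adjusted by Benjamini-Hochberg over all tested probe sets and a threshold of 0.05, and the procedure was tested on simulated data. Errors of signals are SD, errors of differences SE, and 95% intervals are unadjusted.

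The 4 genes, the pathway lists and the marker lists were chosen with earlier results of these data known. Genes named were the 4 genes, their homeologs, axin2, sp5, lef1 and ctnnb1. Also named were up to 4 genes per pathway list with the largest differences past the threshold in each contrast, up to 4 per marker list, and the 5 probe sets best correlated with each of the 4 genes. Where others are named, the text says so or they are examples of a list. The probe set of lef1 carries several symbols and was not used. In the lists a gene is counted by its brightest probe set.

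Same-numbered samples deviated together between anterior dorsal and ventral tissue, with correlations of 0.676, 0.51 and 0.537 for numbers 1, 2 and 3. Same-numbered arrays of these 2 tissues also lie in the same batch, so a pairing cannot be told from the batch. The labels state no pairing, and the main fit used none. Alternatives were other pseudocounts, filters and scalings, quantile normalization, the batch, a replicate block, no variance trend, the 2 tissues of a contrast alone, and each array left out.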

Additional observations from a re-analysis of the deposited data

How the results depend on the processing

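The differences of fzd10.S and tcf7l2.L between primary mouth and anterior dorsal tissue kept their direction in 21 alternative fits each, and that of wnt3a.S in 20. Apart from the fits within a batch, which are not read as tests, these differences also passed the threshold each time. That of wnt8a.L did the same in 20 fits, which supports nothing, since its probe set was tested only through its anterior dorsal arrays. The probe set of wnt3a.S also entered the test mainly through these. In the fits within a batch a tissue with a single array was assumed to vary like the others. Under a filter at the 60th percentile wnt8a.L and wnt3a.S were not tested, so that filter gives them no value. Without 1 array the log2 differences ran from -2.15 to -1.77 for wnt8a.L, -2.15 to -1.70 for wnt3a.S, -1.93 to -1.57 for fzd10.S and -1.51 to -1.11 for tcf7l2.L. Over all alternatives they ran from -3.23 to -1.004, -3.62 to -0.89, -2.20 to -1.16 and -1.67 to -0.94 in the same order.

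Between primary mouth and ventral tissue the results were less stable. The difference of wnt8a.L, never called, turned sign with a pseudocount of 1 (0.040), with arrays centred on their medians (0.0076) and within the first batch (0.031), and ran from -0.23 to 0.18 without 1 array. That of wnt3a.S lost its call with a pseudocount of 64 (-0.38), no filter (-0.97, adjusted p = 0.0531) and median centring (-0.93). It was -0.51 within the first batch and ran from -1.20 to -0.73 without 1 array. That of fzd10.S gained a call with the batch as a term (-0.52). That of tcf7l2.L gained one with the replicate block (0.61, adjusted p = 0.0177) and without primary mouth 3, within a range of 0.42 to 0.83. Between anterior dorsal and ventral tissue, wnt3a.S lost its call with a pseudocount of 1 (1.27). Its difference was 0.59 within the second batch and ran from 0.73 to 1.18 without 1 array. The cause was not tested in any of these cases.

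Calls over all probe sets between primary mouth and anterior dorsal tissue numbered 957, against 1603 with the batch as a term, 514 within the first batch, 1654 with the replicate block and 608 to 1127 without 1 array (618 without anterior dorsal 2, 608 without anterior dorsal 3). Against ventral tissue they numbered 1452, against 2258, 760, 2352 and 955 to 1727 (955 without ventral 3). Between the flanking tissues they numbered 2469, against 3683 with the batch as a term, 3333 with the replicate block, 1043 within the first batch and 1858 to 2711 without 1 array. Of the 46 pathway genes 6 were called between primary mouth and anterior dorsal tissue. With a batch term 12 were called, with the replicate block 12 and without 1 array 4 to 7. Against ventral tissue 5 were called, against 8 with the batch as a term, 12 with the replicate block and 3 to 6 without 1 array. Between the flanking tissues 10 were called, against 14 with the batch as a term, 14 with the replicate block and 8 to 11 without 1 array. Deviations of same-numbered samples of primary mouth and the flanking tissues correlated at 0.437 and 0.584 (against anterior dorsal) and 0.349 and 0.566 (against ventral) for numbers 1 and 3. For number 2, where the primary mouth array lies in the other batch, they correlated at -0.234 and -0.123. Number and batch go together for numbers 1 and 3, and only number 2 separates them. Whether a pairing by number adds to the batch was not tested. The replicate block changed no call of the 4 genes between anterior dorsal and ventral tissue. Signals under the 40th percentile limit the size of the wnt8a.L and wnt3a.S differences.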
